A study of Mus musculus with 14 samples.

Results

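Genes of DNA repair and of the DNA damage checkpoint were followed in liver of male (M) and female (F) mice aged 3, 4 or 8 wk. The set held 33 of the 19751 genes that had a named probe on the array. The members were listed by name as textbook repair and checkpoint genes, without a threshold on measured values. A probe was assigned through its RefSeq accession, and the probe with the brightest mean signal stood for each gene. The members were divided by textbook role into 16 proliferation-linked genes, whose products work mainly at replication forks and in S and G2 phase, and 17 constitutive genes, whose products also serve resting cells.

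The mice were of the outbred CD-1 strain, and no group received a treatment or carried an engineered allele. Each pool held total liver RNA of 5 mice (3 wk) or 6 mice (4 and 8 wk), and the groups M3, F3, M4, F4, M8 and F8 had 2 pools each. Pools were compared in pairs on two-colour Agilent whole mouse genome arrays, in which the RNA of 1 group carries a red dye and that of the other a green dye. The 7 comparisons were those of age in males (M8/M3 and M8/M4), of age in females (F8/F3 and F8/F4) and of sex (M3/F3, M4/F4 and M8/F8), each with 2 replicate arrays of different pools and the dyes exchanged. A ratio is given as log2 of male over female or of 8 wk over the younger age, so that a negative age ratio is a lower level at 8 wk. Since each value rests on 2 pools, the p-values measure the spread between arrays of pooled RNA, not between mice. The changes in whole liver are those of a mixture of cells, in which fewer cells of a type and less RNA per cell cannot be told apart.

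A dividing cell copies its DNA, and forks that stall or break are repaired by homologous recombination, which copies the sister strand, and by the Fanconi anaemia pathway, which unhooks strands that are cross-linked. A resting cell has no sister strand to copy and relies on base excision repair of damaged bases, nucleotide excision repair of bulky lesions and end joining of broken ends. The kinases ATM and ATR sense breaks and stalled forks, and pass the signal to CHEK2 and CHEK1. The liver still grows after weaning, and its hepatocytes leave the cell cycle as it reaches adult size.

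On each array between 55.2% and 77.2% of the spots in a channel were well above background. The male gene Ddx3y was higher in the male pool and Xist higher in the female pool on all 6 arrays that compared the sexes, with log2 ratios of 5.80 to 7.24 and of -6.67 to -5.10. The age arrays hold no such pair of genes, and their direction follows the dye labels. The male minus female difference of the age ratios ran the same way as the change of the sex ratio over the same ages (r = 0.96 from 3 to 8 wk and 0.95 from 4 to 8 wk, across 21683 probes, which are not independent replicates). All 33 members had a probe. A member was well above background on every channel in 31 cases in M3, 30 in M4, 25 in M8, 31 in F3, 30 in F4 and 29 in F8. Brca1 and Fancd2 were not well above background on any M8 channel, and Fancd2 was not on any F8 channel, so that their fall to 8 wk has only a lower bound there.

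The change with age was tested first, in each sex. A member was called when its adjusted p from limma was below 0.05, it changed more than 1.5-fold (a ratio over 1.5 or under 0.667), and its signal in 1 of the groups or in both was well above background on each of the replicate arrays. In M8/M3, 13 of 33 members (39.4%) were called, all lower at 8 wk, whereas 17.9% of the 14448 genes tested were called, 10.0% lower and 7.84% higher. In M8/M4, 12 members (36.4%) were called, all lower, against 10.8% of all genes called, 6.39% lower and 4.46% higher. In F8/F3, 13 members (39.4%) were called, 12 of them lower and Mgmt higher, against 11.7% of all genes called, with 6.65% lower and 5.08% higher. In F8/F4, 10 members (30.3%) were called, all lower, against 6.02% of all genes called, 3.73% lower and 2.29% higher. M8/M3 and M8/M4 share the M8 group, and F8/F3 and F8/F4 share F8, so they are not independent.

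The calls lay mostly among the proliferation-linked genes. Of these 16, 12 were called lower in M8/M3 (75%), 11 in F8/F3 (68.8%), 11 in M8/M4 (68.8%) and 9 in F8/F4 (56.2%). In 10, 10, 9 and 9 of these (the order M8/M3, F8/F3, M8/M4 and F8/F4) the 8 wk group was well above background on 1 of the arrays or on both, with Brca1 in F8/F3 on 1 alone. The others were Brca1 and Fancd2 in M8/M3 and M8/M4 and Fancd2 in F8/F3, which entered the test through the bright younger group. Their lower bounds in M8/M3 and M8/M4, taken after normexp (below), lie under 1.5-fold. Of the 17 constitutive genes, Chek2 was called lower in all 4 comparisons, and Mgmt was called higher in F8/F3. The median log2 ratio of the proliferation-linked genes was -2.43 in M8/M3, -1.5 in F8/F3, -1.55 in M8/M4 and -1.25 in F8/F4. With Brca1 and Fancd2 set to their bound where 8 wk liver was not above background, these medians were -1.23, -1.11, -1.04 and -0.88. The bounds are on the normexp scale, where ratios of dim spots are smaller. These medians thus mix both scales and do not estimate the size of the fall. The median of the constitutive genes was -0.02, 0.06, 0.00 and 0.13 in the same order, and that of all genes tested was 0.01, 0.02, 0.02 and 0.02. Normexp is a model-based background correction of the same spots, and loess normalization of the dyes followed it. It was run with an offset of 50 added to both channels, which makes ratios of dim spots smaller. The medians of the proliferation-linked genes were then closer to 0, at -0.71, -0.90, -0.68 and -0.69.

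**Figure D1:**
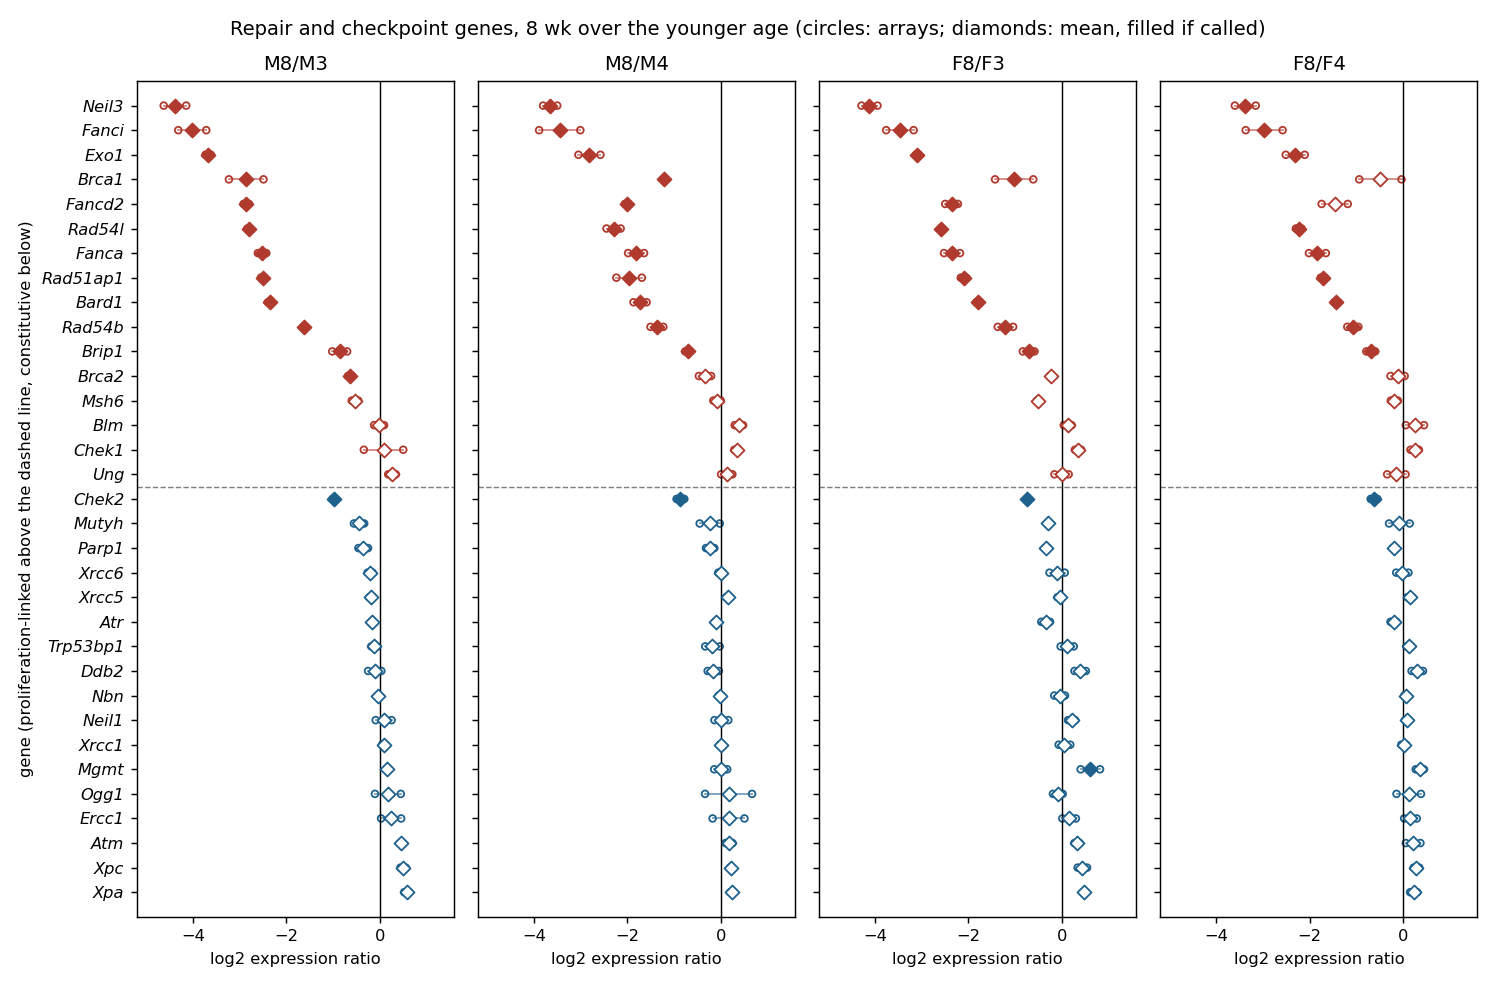
Log2 expression ratio (x axis) of each of the 33 members (y axis) in the 4 age comparisons, with circles for the 2 replicate arrays and diamonds for their mean, filled where called. The proliferation-linked genes above the dashed line reach -4.39 (Neil3 in M8/M3), and the constitutive genes below it lie between -0.98 (Chek2 in M8/M3) and 0.61 (Mgmt in F8/F3), with medians between -0.02 and 0.13. Brca1 and Fancd2 in M8, and Fancd2 in F8, were not well above background, so the plotted fitted values there are not a measured size.

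Among the proliferation-linked genes, the largest fitted fall in each of the 4 comparisons was that of Neil3, a DNA glycosylase that removes oxidized bases, mainly from single-stranded DNA. The processed signal of its probe was 432 and 512 on the M3 channels and 24.4 and 20.7 on the M8 channels of the same arrays. In female liver it was 372 and 505 in F3 and 24.1 and 25.8 in F8. All 4 signals at 3 wk were more than 10 times those at 8 wk, with no overlap. The log2 ratio was -4.39 ± 0.15 (SE, n = 2 arrays, adjusted p = 5.81e-05) in M8/M3, a 20.9-fold fall, and -4.12 ± 0.15 (adjusted p = 7e-05) in F8/F3, a 17.4-fold fall. From 4 to 8 wk Neil3 was 12.6-fold lower in male and 10.4-fold lower in female liver. With normexp Neil3 stood at -1.98 in M8/M3, -2.59 in F8/F3, -2.04 in M8/M4 and -2.13 in F8/F4, and the fall of Fanci, at -2.14, -2.51, -2.28 and -2.19, was then larger except in F8/F3. The other base excision gene of this class, Ung, which removes uracil from DNA, did not pass the test, with log2 ratios between -0.14 and 0.27 in the 4 comparisons.

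The Fanconi anaemia genes Fanci, Fancd2 and Fanca were lower at 8 wk than at 3 wk in both sexes. FANCI and FANCD2 form the pair that is ubiquitinated at a cross-link, and FANCA belongs to the core complex that ubiquitinates them. For Fanci the replicate arrays gave log2 ratios of -3.72 and -4.32 for M8/M3, -3.18 and -3.76 for F8/F3, -3.01 and -3.89 for M8/M4 and -2.58 and -3.37 for F8/F4. Each of the 8 arrays was thus far below 0, and Fanci was 16.2-fold lower in M8/M3 (adjusted p = 0.000271) and 11.1-fold lower in F8/F3 (adjusted p = 0.000424). For Fanca they were -2.61 and -2.43, -2.18 and -2.52, -1.64 and -1.98, and -1.65 and -2.01 in the same order. Fanca was 5.11-fold lower in F8/F3 (log2 ratio -2.35 ± 0.10, adjusted p = 0.000111), and its log2 ratio in M8/M3 was -2.52 ± 0.10 (adjusted p = 9.14e-05).

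Fancd2 was well above background on both channels of each younger group in the age comparisons, and on no channel at 8 wk. It was at least 1.34-fold lower in M8/M3 (adjusted p = 0.00628), at least 1.36-fold lower in M8/M4 (adjusted p = 0.0237) and at least 1.64-fold lower in F8/F3 (adjusted p = 0.0131). In F8/F4 it was at least 1.39-fold lower and missed the threshold (adjusted p = 0.0728). These bounds were taken on signals after normexp, with its offset of 50 added to both channels. For the 8 wk level they take the higher of the dim signal and the lowest signal well above background on each array. For Fancd2 and Brca1 the dim signal was the higher. Their bounds are therefore the normexp ratios themselves, not a separate check. The adjusted p beside them are those of the fit on the deposited ratios. The call was lost without the first M8/M3 array (adjusted p = 0.0658), without either M8/M4 array and without the first F8/F3 array, and with normexp Fancd2 was not called in M8/M3 (-0.42) or M8/M4 (-0.44). With the RNA pools that arrays share in the covariance of the fit, Fancd2 was called in none of the comparisons (adjusted p = 0.107 in M8/M3, 0.265 in M8/M4 and 0.181 in F8/F3).

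The products of Brca1 and Bard1 form a ubiquitin ligase that prepares broken ends for recombination, and that of Brip1 is a helicase bound to BRCA1. Bard1 gave -2.39 and -2.32 for M8/M3, -1.75 and -1.83 for F8/F3, -1.59 and -1.87 for M8/M4 and -1.47 and -1.39 for F8/F4. It was 5.11-fold lower in M8/M3 (adjusted p = 0.000126) and 3.46-fold lower in F8/F3 (adjusted p = 0.000267). A dimmer probe for Bard1 fell less, by 1.23 on the log2 scale in M8/M3, and was not called in the other comparisons, where it gave -0.28 (M8/M4), -0.27 (F8/F3) and -0.57 (F8/F4).

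Brca1 had a low signal throughout. In M3 it was 20.2 and 20.8 on the arrays against M8, where the M8 channels gave 3.60 and 2.22. The F8 channels gave 15.7 and 10.4, and the arrays of F8/F3 gave log2 ratios of -0.61 and -1.43. The M8 signals were thus the lowest, and were not well above background. Brca1 was at least 1.19-fold lower in M8/M3 (adjusted p = 0.000388) and at least 1.18-fold lower in M8/M4 (adjusted p = 0.00885). It was 2.03-fold lower in F8/F3 (adjusted p = 0.0175), with F8 well above background on 1 of the 2 arrays, and was not called in F8/F4 (log2 ratio -0.48 ± 0.20, adjusted p = 0.185). Its F8/F3 call was lost without either array and its M8/M4 call without the first. With normexp, from which its bounds come, Brca1 was not called in M8/M3 (-0.25), F8/F3 (-0.27) or M8/M4 (-0.24). The normexp offset of 50 was above its signals. With shared pools in the covariance its calls in M8/M4 and F8/F3 were lost (adjusted p = 0.285 and 0.399).

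Brip1 fell by 0.86 on the log2 scale in M8/M3 (arrays -1.01 and -0.70, adjusted p = 0.0072), and its ratios in the other comparisons were between -0.71 and -0.69. All 8 arrays were below 0, but the changes were close to the fold threshold, and with normexp background correction Brip1 stood between -0.36 and -0.26 and was not called. Its M8/M3 and F8/F3 calls were lost without the first array (-0.66 in M8/M3, adjusted p = 0.0815), and its M8/M4 and F8/F4 calls without either. With shared pools in the covariance Brip1 was not called in M8/M4, F8/F3 or F8/F4 (adjusted p = 0.0767, 0.0759 and 0.0838). Brca2, whose product acts in repair of breaks by recombination, was called in M8/M3 alone, at -0.63 ± 0.06 (arrays -0.59 and -0.68, adjusted p = 0.000806). In F8/F3, M8/M4 and F8/F4 it stood at -0.23, -0.34 and -0.11. With normexp its M8/M3 ratio was -0.48, under the fold threshold.

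The genes that act later in recombination, Rad54l, Rad54b and Rad51ap1, were lower at 8 wk in all 4 comparisons. RAD51AP1 stimulates strand pairing, and RAD54L and RAD54B are motor proteins that help the invading strand to pair. Rad54l gave -2.84 and -2.78 for M8/M3, -2.58 and -2.59 for F8/F3, -2.14 and -2.45 for M8/M4 and -2.29 and -2.17 for F8/F4. Rad51ap1 gave -2.54 and -2.47, -2.05 and -2.16, -1.69 and -2.24, and -1.76 and -1.67. Every array of both genes lay below -1.5 on the log2 scale. Rad54l was 7.01-fold lower in M8/M3 (adjusted p = 0.00023) and Rad51ap1 was 5.68-fold lower (adjusted p = 0.0013).

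Rad54b fell less, by 1.61 on the log2 scale in M8/M3 (arrays -1.63 and -1.59, adjusted p = 0.000739) and by 1.21 in F8/F3 (arrays -1.37 and -1.04, adjusted p = 0.00208). Exo1, a nuclease that trims broken ends and mismatched strands, had a larger fitted fall than any of these. Its arrays gave -3.62 and -3.73 for M8/M3, -3.07 and -3.13 for F8/F3, -2.58 and -3.05 for M8/M4 and -2.10 and -2.51 for F8/F4. It was 12.8-fold lower in M8/M3 (adjusted p = 0.000126) and 8.55-fold lower in F8/F3 (adjusted p = 0.0002).

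Besides Ung, Msh6, Blm and Chek1 were the proliferation-linked genes that were called in none of the age comparisons. Msh6, a subunit of the mismatch sensor, stood at -0.53 in M8/M3 (arrays -0.46 and -0.60, adjusted p = 0.00037) and at -0.51 in F8/F3 (arrays -0.49 and -0.53, adjusted p = 0.000405). Both lay under the fold threshold though past the adjusted p, and in M8/M4 and F8/F4 Msh6 stood at -0.08 and -0.18. The RecQ helicase gene Blm gave log2 ratios of -0.01 in M8/M3, 0.13 in F8/F3, 0.39 in M8/M4 and 0.26 in F8/F4. Chek1, the checkpoint kinase that acts below ATR, gave 0.08, 0.35, 0.34 and 0.25, and was too dim to be tested in M8/M3, where its replicate arrays differed most (-0.34 and 0.51).

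Over the proliferation-linked genes called lower with an 8 wk signal well above background on 1 of the arrays or on both, the falls were 1.55- to 20.9-fold in M8/M3 (10 genes), 1.63- to 17.4-fold in F8/F3 (10 genes), 1.63- to 12.6-fold in M8/M4 (9 genes) and 1.61- to 10.4-fold in F8/F4 (9 genes). With normexp the falls of the same genes were smaller, and reached 4.41-, 6.01-, 4.87- and 4.58-fold in this order. In M8/M3 the log2 ratios with normexp were -2.14 for Fanci, -1.80 for Exo1, -1.85 for Fanca, -1.06 for Rad54l and -0.94 for Bard1. There were 9 genes called lower in all 4 comparisons: Neil3, Fanci, Exo1, Rad54l, Fanca, Rad51ap1, Bard1, Rad54b and Brip1. The replicate arrays of a proliferation-linked gene differed by a median of 0.15 on the log2 scale in M8/M3 and by 0.33 in F8/F4.

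Promoter sequences are shown for the 4 members with the lowest fitted ratios in M8/M3 that had an entry in the RefSeq promoter table (GRCm38.p6), among which Brca1 has only a bound on its fall, and for 2 constitutive genes with ratios near 0, to set the groups side by side. Each is the 250 bases before the transcription start, 5′ to 3′ on the strand of the gene. Capitals mark matches, on either strand, to the CHR element (TTTGAA or TTCGAA), the E2F site (TTTCCCGC, TTTCGCGC, TTTGGCGC or TTTGCCGC) and the CCAAT box (CCAAT), which textbook accounts describe in promoters of cell cycle genes. The regions are chr8:53639066-53639315 (Neil3, minus strand), chr7:79392088-79392337 (Fanci, plus), chr11:101551956-101552205 (Brca1, minus), chr4:116123690-116123939 (Rad54l, minus), chr9:57148306-57148555 (Neil1, minus) and chr7:24546449-24546698 (Xrcc1, plus).
Neil3: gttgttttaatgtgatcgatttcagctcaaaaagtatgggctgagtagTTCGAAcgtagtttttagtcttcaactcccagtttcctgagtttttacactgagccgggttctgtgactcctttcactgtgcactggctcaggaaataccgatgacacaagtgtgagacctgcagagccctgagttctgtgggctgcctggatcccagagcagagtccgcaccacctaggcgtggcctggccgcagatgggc
Fanci: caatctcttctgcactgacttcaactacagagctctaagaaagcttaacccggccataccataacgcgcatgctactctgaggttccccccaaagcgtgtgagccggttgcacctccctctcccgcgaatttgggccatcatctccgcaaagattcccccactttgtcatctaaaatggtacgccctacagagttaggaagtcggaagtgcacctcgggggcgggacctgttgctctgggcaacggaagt
Brca1: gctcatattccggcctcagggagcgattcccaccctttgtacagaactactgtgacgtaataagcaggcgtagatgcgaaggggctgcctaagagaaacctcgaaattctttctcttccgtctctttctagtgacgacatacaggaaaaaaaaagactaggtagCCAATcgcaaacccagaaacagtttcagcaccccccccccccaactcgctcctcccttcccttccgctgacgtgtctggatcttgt
Rad54l: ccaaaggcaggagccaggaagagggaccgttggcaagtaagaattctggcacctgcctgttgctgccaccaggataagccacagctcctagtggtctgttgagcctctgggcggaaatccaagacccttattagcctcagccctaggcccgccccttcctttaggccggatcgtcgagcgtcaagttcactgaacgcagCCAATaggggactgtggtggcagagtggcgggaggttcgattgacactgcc
Neil1: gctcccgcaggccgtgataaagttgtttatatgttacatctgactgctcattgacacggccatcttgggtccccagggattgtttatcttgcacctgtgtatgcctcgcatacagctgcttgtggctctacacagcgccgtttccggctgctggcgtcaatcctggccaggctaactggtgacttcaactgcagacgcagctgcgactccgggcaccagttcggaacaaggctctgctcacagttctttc
Xrcc1: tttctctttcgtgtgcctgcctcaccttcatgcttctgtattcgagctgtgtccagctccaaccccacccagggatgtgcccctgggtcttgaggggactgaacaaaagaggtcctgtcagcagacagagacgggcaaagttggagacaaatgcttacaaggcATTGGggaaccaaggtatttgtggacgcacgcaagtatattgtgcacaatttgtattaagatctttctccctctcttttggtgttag

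Neil3 had a CHR match 202 bases before the start, Brca1 and Rad54l had a CCAAT match at 86 and 51 bases, and Fanci had none of the motifs in the stretch shown. Xrcc1 had a CCAAT match on the opposite strand (ATTGG) at 87 bases, and Neil1 had none. The counts were made over windows from 250 bases before to 50 bases after the start, in which 27 of 33 members had an entry, 13 proliferation-linked and 14 constitutive. An E2F match was found in 3 of the 13 (Bard1, Brca2 and Msh6, 23.1%), in 2 of the 14 (Chek2 and Xrcc6, 14.3%) and in 2.6% of the 27025 genes of the table. For the CHR element these were 2 of 13 (Bard1 and Neil3, 15.4%), 1 of 14 (Atr, 7.14%) and 21.7%, and for the CCAAT box 7 of 13 (53.8%), 8 of 14 (57.1%) and 41.1%. These matches describe letters in a window and were not tested for binding.

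Most constitutive genes were not called between the ages. Of the 17, 15 were called in none of the age comparisons, and the log2 ratios of those not called were between -0.44 and 0.58 for M8/M3, -0.35 and 0.48 for F8/F3, -0.23 and 0.24 for M8/M4 and -0.20 and 0.36 for F8/F4. Values below follow this order of comparisons where none is named. The replicate arrays of a constitutive gene differed by a median of 0.11 in M8/M3 and 0.20 in F8/F3.

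The constitutive genes called were Mgmt, in F8/F3, and Chek2, the checkpoint kinase that acts below ATM. The arrays of Chek2 gave -1.01 and -0.94 for M8/M3, -0.75 and -0.75 for F8/F3, -0.78 and -0.94 for M8/M4 and -0.55 and -0.69 for F8/F4. All 8 arrays were below 0 with little spread, and Chek2 was 1.97-, 1.68-, 1.82- and 1.53-fold lower (adjusted p = 0.000104, 0.000191, 0.000132 and 0.00034). With normexp background correction it was called in M8/M4 (-0.63) and stood under the fold threshold in M8/M3 (-0.53), F8/F3 (-0.56) and F8/F4 (-0.45). Without the second F8/F4 array it was -0.57 in that comparison and was not called.

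Of the other break sensors and mediators, Atm, the kinase that responds to broken ends, stood at 0.46 in M8/M3 (arrays 0.49 and 0.44, adjusted p = 0.00855) and 0.33 in F8/F3 (adjusted p = 0.0313), under the fold threshold. A dimmer probe for Atm, also well above background, gave 0.04 in M8/M3 (adjusted p = 0.987) and -0.07 in F8/F3 (adjusted p = 0.834). Atr stood at -0.17 in M8/M3 and -0.35 in F8/F3 (adjusted p = 0.0381 and 0.00268), also under it. Nbn, a subunit of the complex that binds broken ends, gave -0.02, -0.05, -0.02 and 0.06, and Trp53bp1, which steers breaks towards end joining, gave -0.11, 0.12, -0.18 and 0.13. The genes of the KU heterodimer that holds ends for joining, Xrcc5 and Xrcc6, had ratios between -0.20 and 0.16.

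In nucleotide excision repair, the damage sensor Xpc and the scaffold Xpa had positive ratios on every array of the age comparisons. Xpa gave 0.64 and 0.53 in M8/M3 and 0.51 and 0.45 in F8/F3, with means of 0.58 and 0.48 (adjusted p = 0.0005 and 0.00096). Its M8/M3 ratio was just under the threshold of 1.5-fold. Xpc gave 0.45 and 0.56 in M8/M3 and 0.34 and 0.54 in F8/F3 (adjusted p = 0.00112 and 0.00182). The nuclease subunit Ercc1 gave 0.25, 0.16, 0.17 and 0.16 and the sensor Ddb2 gave -0.10, 0.39, -0.16 and 0.31, none with an adjusted p below 0.05.

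In base excision repair, the nick sensor Parp1 stood at -0.35 in M8/M3 (arrays -0.25 and -0.45, adjusted p = 0.00243) and -0.33 in F8/F3 (adjusted p = 0.00313), under the fold threshold. The glycosylase gene Mutyh stood at -0.44 in M8/M3 (adjusted p = 0.0345) and -0.30 in F8/F3. Neil1 gave 0.09, 0.21, 0.02 and 0.08, in contrast to the values of its relative Neil3. Ogg1, which removes oxidized guanine, and the scaffold Xrcc1 had ratios between -0.08 and 0.18. For Ogg1 the replicate arrays went opposite ways in all 4 age comparisons, with the widest gap in M8/M4 (0.67 and -0.33).

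Mgmt, which takes alkyl groups off guanine in a single step, was the member called higher. Its arrays gave 0.82 and 0.41 in F8/F3, a 1.53-fold rise (log2 ratio 0.61 ± 0.13, adjusted p = 0.0229), and 0.14 and 0.19 in M8/M3. The call rested on the first F8/F3 array, without which Mgmt was 0.38 (adjusted p = 0.22). It was also lost with slide as a block (adjusted p = 0.0637) and with normexp (0.56, under the fold threshold). The difference between the sexes in the change of Mgmt did not pass the test at an adjusted p of 0.05.

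Male and female liver were compared next. No member was called in M3/F3, against 0.517% of the 13340 genes tested (0.337% lower and 0.180% higher in male). None was called in M4/F4, against 1.59% of all genes (0.971% lower and 0.619% higher), or in M8/F8, against 6.42% (3.75% lower and 2.67% higher). At an unadjusted p below 0.05 limma gave 4, 3 and 7 members. The share of all genes at that level was not taken, so these counts have nothing to be set beside. An error-weighted average of the arrays with an unadjusted p below 0.0001 called 0, 0 and 0. The absolute log2 ratio was under the fold threshold for all 33 members in M3/F3 and in M4/F4, and for 28 in M8/F8. The median log2 ratio of the proliferation-linked genes was 0.18, 0.00 and -0.25 at the ages of 3, 4 and 8 wk, and that of the constitutive genes was 0.06, 0.07 and 0.02.

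**Figure D2:**
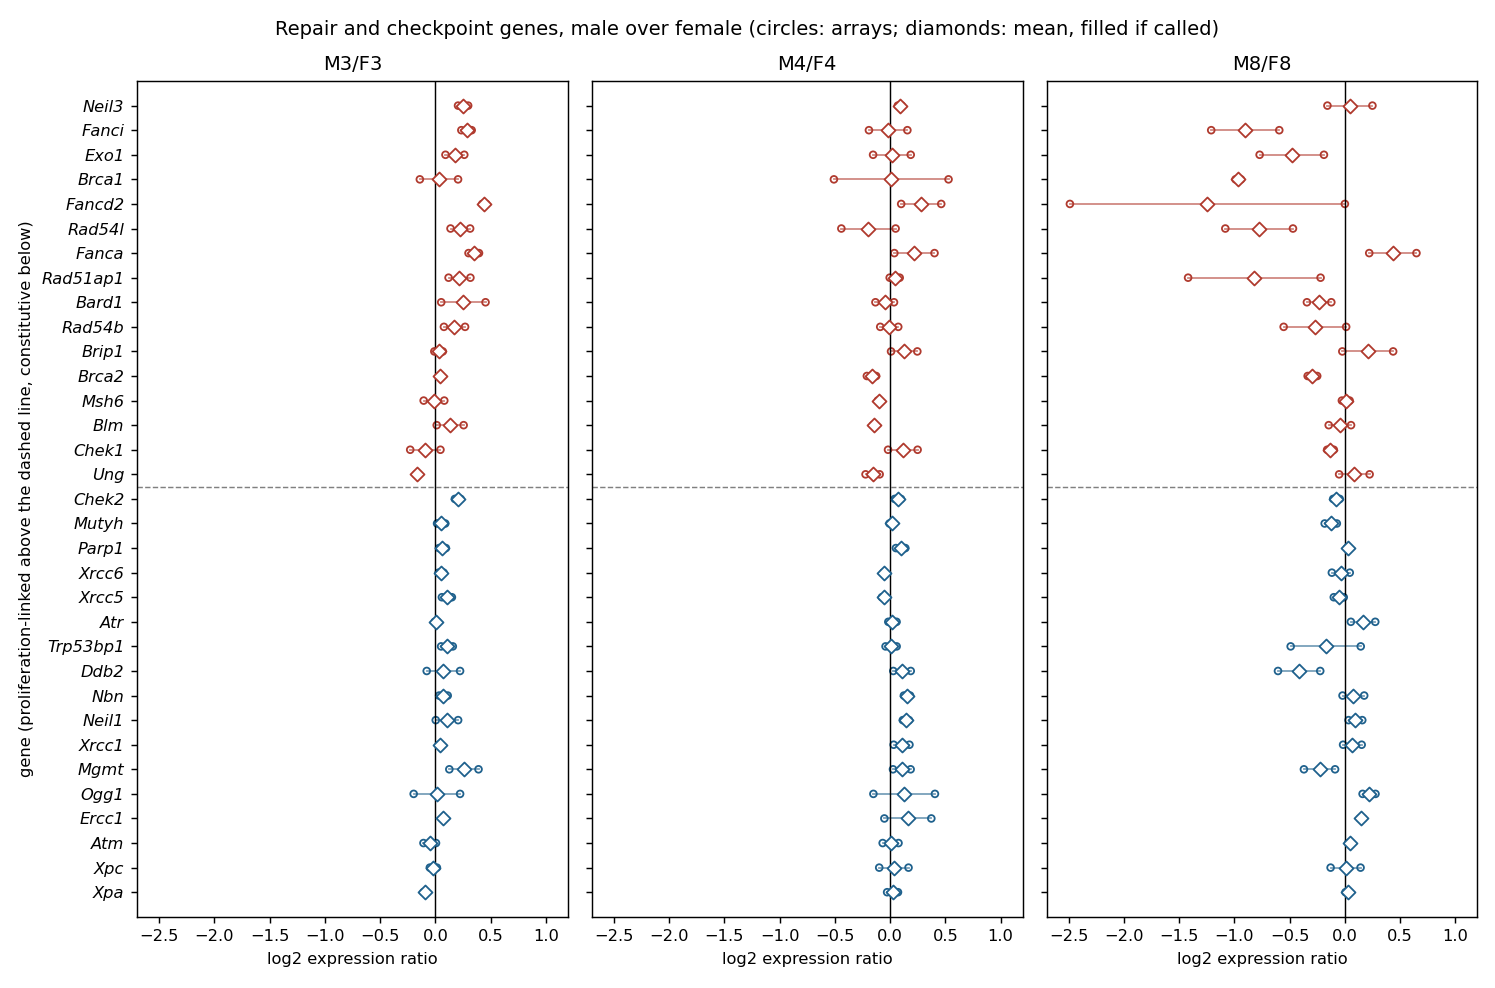
Log2 ratio of male over female (x axis) of each member (y axis) at 3, 4 and 8 wk, with circles for the 2 replicate arrays and open diamonds for their mean, since none was called. The spread between arrays is widest in M8/F8, where Fancd2 gave -2.49 and 0.00 on signals not well above background.

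The members with the lowest male over female ratios at 8 wk were dim there. Fanci gave -0.59 and -1.21 (adjusted p = 0.06) and Rad51ap1 gave -0.22 and -1.42 (adjusted p = 0.081), with M8 well above background on 1 of the 2 arrays for each. With the replicate number or the slide as a block in limma Fanci was called (adjusted p = 0.0142 and 0.031). With shared pools in the covariance or with normexp it was not. Brca1 gave -0.99 and -0.94, Rad54l gave -0.47 and -1.08, and neither sex was well above background on these arrays. Their signals were therefore too low for a size to be given. Fanca, which was bright on all of them, gave 0.22 and 0.65 (0.43 ± 0.10, adjusted p = 0.0344), and Brca2 gave -0.34 and -0.25 (-0.29 ± 0.06, adjusted p = 0.0144), both under the fold threshold. Neil3 gave 0.25 and -0.16, so that its low level at 8 wk had no direction between the sexes. At 3 wk Chek2 gave 0.18 and 0.23 (adjusted p = 0.0202), also under the threshold.

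Whether the change with age differed between the sexes was tested as the difference of M8/M3 and F8/F3, and of M8/M4 and F8/F4. Between 3 and 8 wk 1 member, Brca1, was called, against 3.38% of the 14902 genes tested (1.74% lower and 1.64% higher in male). Its fitted male minus female difference was -1.84 ± 0.29 (SE, adjusted p = 0.0199). The M8 signal behind it was not well above background, so that the male fall has only a bound, and a larger fall in male liver is not shown. That bound, at least 1.19-fold, is on the normexp scale, on which the log2 ratio of Brca1 from 3 to 8 wk was -0.25 for male and -0.27 for female liver. The 2.03-fold fall in female liver comes from the deposited ratios and cannot be set beside the bound. With normexp and loess the difference was 0.01 (adjusted p = 0.992). M8/M3 and F8/F3 lay on different slides, so that slide and sex cannot be told apart in this difference. The slide block separates only the replicates within a pair of slides. It left the difference unchanged and gave an adjusted p of 0.0606. With the shared pools in the covariance the adjusted p was 0.366. Brca2 differed by -0.40 ± 0.08 (adjusted p = 0.0395), under the fold threshold. For the other members the difference was between -0.58 and 0.27, and the lowest adjusted p was 0.0923. Between 4 and 8 wk no member was called by limma, the lowest adjusted p was 0.125, and 1.33% of all genes were called (0.580% lower and 0.752% higher). An unadjusted p below 0.05 was found for 9 members from 3 to 8 wk and 5 from 4 to 8 wk. The share of all genes at that level was not taken.

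The proliferation-linked genes that were called lower in both sexes between 3 and 8 wk numbered 11. For 2 of them, Brca1 and Fancd2, the bounds give no direction between the sexes, and the other 9 had the lower fitted ratio in male liver. With normexp and loess, which replaced the background correction and the dye normalization together, it held for 1 of the 9, Rad54b. Between 4 and 8 wk it held for 8 of 9, and for 6 of 9 with normexp. The M8/M3 and F8/F3 arrays lay on different slides, so slide and sex cannot be told apart from 3 to 8 wk.

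**Figure D3:**
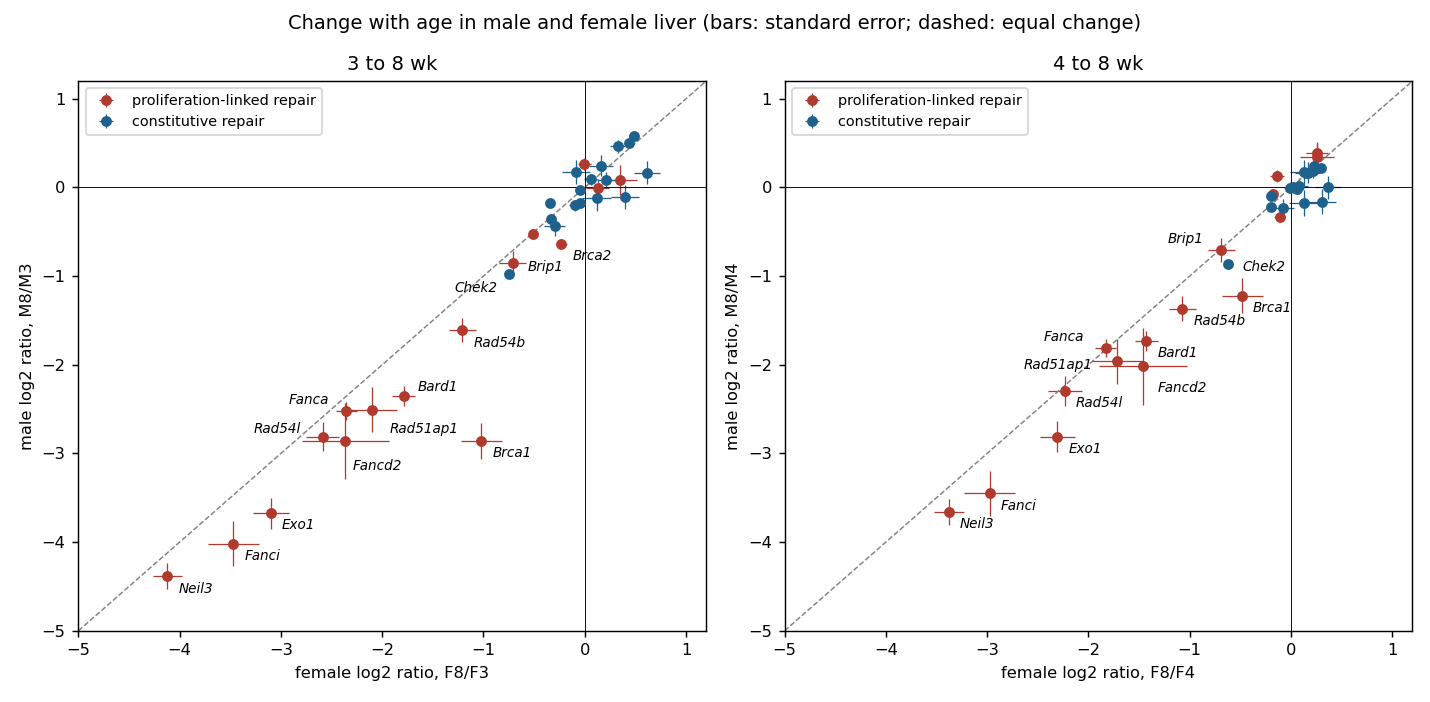
Log2 change with age in male liver (y axis) against that in female liver (x axis) for the 33 members, from 3 to 8 wk (left) and 4 to 8 wk (right), with bars for the SE. Brca1 at 3 to 8 wk (-2.86 in male, from a signal not well above background, and -1.02 in female) lies farthest from the dashed line of equal change.

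Other genes of the same pathways were read from a list of 108, all of which but Rad51c had a probe. They were called lower in 24 cases in M8/M3 (22.4%), 20 in F8/F3 (18.7%), 16 in M8/M4 (15%) and 12 in F8/F4 (11.2%), beside 10.0%, 6.65%, 6.39% and 3.73% of all genes, and called higher in 4, 2, 0 and 1. Their medians were -0.12, -0.14, -0.07 and -0.05. In all 4 comparisons 12 of them were called lower, and 77 were called in none.

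The counts by pathway are small and were not tested against each other. In M8/M3, where 10.0% of all genes were called lower, 7 of 18 checkpoint genes, 6 of 15 homologous recombination genes, 4 of 14 Fanconi anaemia genes and 3 of 16 base excision genes were called lower. None of the 6 mismatch repair genes and none of the 14 nucleotide excision repair genes was called in M8/M3 or in F8/F3. In F8/F3, where 6.65% of all genes were called lower, the counts were 7 checkpoint, 3 recombination, 4 Fanconi anaemia and 2 base excision genes.

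Among the genes that act with the members, Palb2, which links BRCA1 to BRCA2, was called lower in M8/M3 (-1.14), M8/M4 (-0.92) and F8/F3 (-0.75). The recombination gene Rad51d went the other way, with 1.35 in M8/M3 (arrays 1.45 and 1.25) and 1.00 in F8/F3 (arrays 0.99 and 1.01), both called. On the Fanconi anaemia list, the ubiquitin-conjugating enzyme gene Ube2t gave -2.39 in M8/M3 and -1.82 in F8/F3, the nuclease subunit gene Eme1 gave -2.72 and -2.32, and the core complex gene Fancb gave -1.71 and -1.09, all called.

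In base excision repair, the flap nuclease gene Fen1 (-1.54 in M8/M3, adjusted p = 0.000532) and the ligase gene Lig1 (-1.31, adjusted p = 6.44e-05) were called lower in all 4 comparisons, and both also serve to join the fragments of the lagging strand. Neil2, a glycosylase related to Neil1 and Neil3, was called higher, with 1.95 in M8/M3 (arrays 1.85 and 2.05, adjusted p = 0.000982) and 1.46 in F8/F3 (adjusted p = 0.00288). The 3 NEIL genes on the array thus had a large negative, a small and a positive ratio from 3 to 8 wk.

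Of the end joining genes, Polq, the polymerase of the microhomology route, was lower (-2.43 in M8/M3 and -2.24 in F8/F3), whereas the nuclease gene Dclre1c (0.72) and the ligase cofactor gene Nhej1 (0.60) were called higher in M8/M3. On the checkpoint list, Clspn, which brings CHEK1 to ATR, gave -2.48 in M8/M3 and -2.23 in F8/F3, the histone gene H2ax gave -1.69 and -1.67, and the fork protection gene Timeless gave -1.62 and -1.20, all called. Of the translesion genes, Pcna, the sliding clamp of the fork, gave -1.03 and -0.82 and the ubiquitin ligase gene Rad18 gave -0.84 and -0.85. The RecQ helicase gene Recql4 gave -1.24 and -0.65, unlike Blm.

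In M8/F8, 2 genes of these lists were called, a smaller share than the 6.42% of all genes called there. Fancc, a core complex gene of the Fanconi anaemia pathway, was lower in male liver (log2 ratio -0.77, arrays -0.76 and -0.77, adjusted p = 0.00129), and Nhej1 was higher (0.76, arrays 0.87 and 0.64, adjusted p = 0.00124). Their change from 3 to 8 wk differed between the sexes by -1.05 (adjusted p = 0.00591) and 0.62 (adjusted p = 0.0259), with the arrays of each sex on different slides. Fancc stood at -0.74 in male and 0.32 in female liver over that time, and Nhej1 at 0.60 and -0.02.

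Genes of DNA replication and mitosis, a list of 22, were lower in the same comparisons. All 22 were called lower in M8/M3, 21 in F8/F3, 17 in M8/M4 and 19 in F8/F4, with medians of -2.54, -2.24, -1.81 and -1.88. Aurkb and Cdc6 were not well above background on any channel at 8 wk, entered these counts through the younger group and have only bounds, of at least 1.96- to 3.18-fold. With both at their bound the medians were -2.15, -1.87, -1.40 and -1.44. The bounds are on the normexp scale, so these medians mix it with that of the other genes. Mki67, the cycling cell antigen, gave -4.02, -3.16, -3.37 and -2.96, and the helicase gene Mcm2 gave -1.93, -1.53, -1.04 and -0.83. The topoisomerase gene Top2a gave -3.11, -2.78, -2.83 and -2.32, and was called lower in M8/F8 on arrays that gave -0.40 and -1.83 (adjusted p = 0.0386). The summed signal of the list was 36815.9 to 57595.5 in M3 and 11185.9 to 16198.8 in M8, and 33230.2 to 61606.5 in F3 and 11810.6 to 19733.6 in F8.

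Markers of blood cell precursors also moved with age. Of 9 erythroid markers, 5, 6, 4 and 5 were called lower in M8/M3, F8/F3, M8/M4 and F8/F4. Epb42, Gata1 and Rhag were not well above background on any channel at 8 wk. The summed erythroid signal was 19179.4 to 30759.5 in M3 and 28504.3 to 41393.4 in M8, where Alas2 was higher, and 20191 to 33912.2 in F3 and 18834.4 to 32637 in F8. Of 8 neutrophil precursor markers, 7, 7, 4 and 6 were called lower, and their summed signal was 3892.72 to 6061.12 in M3, 1206.09 to 2297.31 in M8, 7892.55 to 16096.5 in F3 and 1477.3 to 3277.97 in F8. The part of these cells in the fall of the repair genes was not tested.

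Hepatocyte markers, 8 genes such as Alb, were mostly not called, with 1 lower and 1 higher in each male comparison, none in F8/F3, and 1 higher in F8/F4. Of 6 macrophage markers 2, 1, 2 and 1 were called lower, of 6 stellate and mesenchymal markers 3, 2, 2 and 2, of 5 bile duct markers 2, 1, 1 and 1, of 6 endothelial markers 1, 1, 1 and 0, of 6 T lymphocyte markers 2, 0, 1 and 0, and of 6 B lymphocyte markers 0 in each. Their part in the values of the repair genes was not tested either.

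**Figure D4:**
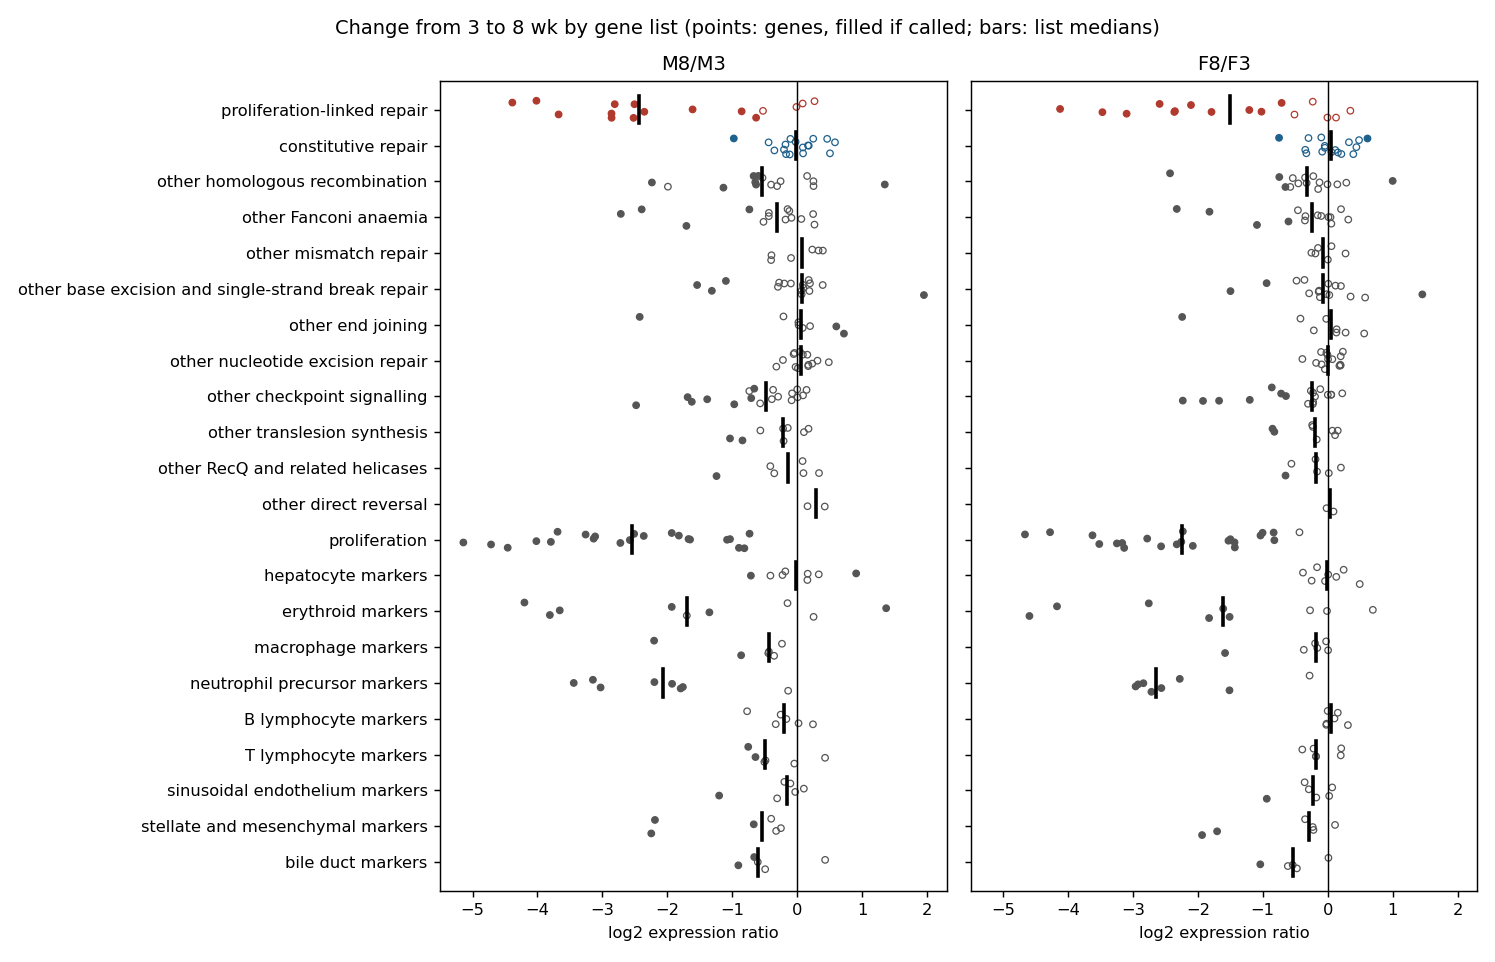
Log2 ratio from 3 to 8 wk (x axis) of every gene of each list (y axis) in male (left) and female liver (right), with filled points for called genes and bars for list medians. The bar of the proliferation-linked repair genes is at -2.43 (left) and -1.5 (right), that of the proliferation list at -2.54 and -2.24, and that of the constitutive repair genes at -0.02 and 0.06. The first bar rests on fitted values of Brca1 and Fancd2. With these at their bound, which is on the normexp scale, it is at -1.23 and -1.11.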

How the data were processed

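RNA of pooled CD-1 mouse livers had been hybridized to 14 two-colour Agilent arrays, 2 for each of 7 comparisons, with dyes exchanged between replicates. The authors extracted spot intensities (deposited as pixel median signal and background, and as processed signal) with Feature Extraction 10.7.1.1, which subtracts background and normalizes the dyes within each array by linear and LOWESS steps. They deposited the log10 ratio of red over green for each spot, with the error of that ratio, a score on the log10 scale from the software's error model. The deposited series table holds the same log10 ratios (largest difference 0).

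Ratios were turned to male over female or 8 wk over the younger age by the dye labels and converted to log2, as computed here from the deposited log10 values. The study's methods name the dyes of the M3/F3 arrays the other way round. The labels were followed, under which Ddx3y is higher in male liver. Control spots and non-uniform spots (0 to 10 per array) were left out, no spot was saturated, and spots of 1 probe were averaged. Of 39429 probes, 26055 matched a gene through their RefSeq accession. A model with 7 comparisons and a dye term was fitted to all probes with limma 3.58.1 in R 4.3.3 (6 residual degrees of freedom), with Benjamini-Hochberg adjustment over all probes and comparisons together, and within the contrast for differences between the sexes. The script was tested on simulated data.

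All members are named. From each pathway list up to 3 genes are named, by the size of M8/M3 among those called in an age comparison, together with any called between the sexes. The members, the split by role and all lists were chosen with earlier results of these data known. The lists used were the members, the pathway genes, the proliferation genes and the markers of 9 cell types, without Rad51c, Ahsp, Cd68 and Trac, which had no named probe. Promoters came from the RefSeq table of GRCm38.p6.

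Alternatives were no dye term, the replicate number or the slide as a block (4 slides, with the replicates of a comparison on different ones), shared pools in the covariance (1 pool of each group for each replicate number, as the methods describe for M3/F3), 6 group means, normexp background correction (offset 50) with loess, median centring, an error-weighted average, other thresholds and adjustments, no filter on dim probes, the mean of all probes, and leaving out each array. Normexp used the median signal, since no mean signal was in the files used here. A fit on bright probes alone was added after seeing the data. The number of arrays limits the precision.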

Additional observations from a re-analysis of the deposited data

Results flagged for a closer look

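In 2 members the male minus female difference of the change from 3 to 8 wk had an adjusted p below 0.05, and 1 of them, Brca1, also passed the fold threshold. For Brca1 the male minus female difference was -1.84 on the log2 scale (SE 0.29, adjusted p = 0.0199), with M8/M3 arrays of -2.49 and -3.23 and F8/F3 arrays of -0.61 and -1.43. Without either M8/M3 or either F8/F3 array, the arrays that enter the difference, the adjusted p was between 0.0715 and 0.111. With normexp the difference was 0.01 (adjusted p = 0.992), where an offset of 50, above all Brca1 signals of these arrays, held it small. The adjusted p was 0.0606 with slide as a block, which does not remove the difference in slides between M8/M3 and F8/F3. It was 0.366 with shared pools and 0.0927 without the dye term. The M8 signal of Brca1 was not well above background on any channel. For Brca2 the difference was -0.40 (SE 0.08, adjusted p = 0.0395), with M8/M3 arrays of -0.59 and -0.68 and F8/F3 arrays of -0.20 and -0.26. This is under the fold threshold, and without each of the same arrays in turn the adjusted p was between 0.116 and 0.181. It was 0.349 with normexp, 0.0581 with slide as a block, 0.133 with shared pools and 0.133 without the dye term. All channels of Brca2 were well above background.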

How the results depend on the processing

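Of the 48 calls of members over the 7 comparisons, the alternatives kept between 34 (normexp) and all, and no member that was called changed direction. Single array removals gave 44 to 52 calls in all. The lost calls were those of Brca1, Fancd2, Brip1, Mgmt, Chek2 and Brca2, and, at an unadjusted p below 0.0001, also Rad51ap1 and Rad54b; the calls of Neil3, Fanci, Exo1, Rad54l, Fanca and Bard1 were kept in every alternative. Normexp left 8 members in M8/M3 and 0 constitutive genes in M8/M3, F8/F3 and F8/F4. In M8/F8, where 0 members were called, the replicate block gave 1, slide as a block 1, 6 group means 1, no filter on dim probes 2 and the fit on bright probes alone, added after seeing the data, 2, all of them proliferation-linked and lower. Constitutive genes called in F8/F3 were 1 with slide as a block, 1 with the error-weighted average and 1 at an unadjusted p below 0.0001, where M8/M4 held 7 proliferation-linked genes. Constitutive genes in M8/M3 were 2 with 6 group means. The sex difference from 3 to 8 wk was called in 0 members without the dye term, with slide as a block, with shared pools, with normexp and at an unadjusted p below 0.0001, in 3 with 6 group means and in 2 with no fold threshold, and that from 4 to 8 wk in 1 with 6 group means. With no fold threshold the members called were 1 in M3/F3 (1 constitutive), 22 in M8/M3, 20 in F8/F3 and 16 in F8/F4. Those in M8/F8 were 3, with Brca2 lower in male liver, and Fanca and the constitutive gene Atr higher. Constitutive genes called at this setting were 7 in F8/F3, 8 in M8/M3, 6 in F8/F4 and 5 in M8/M4. The cause of these shifts was not tested.

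With single arrays left out, members called ranged over 0 to 0 in M3/F3 and M4/F4, 0 to 3 in M8/F8, 11 to 14 in M8/M3, 9 to 12 in M8/M4, 9 to 13 in F8/F3 and 8 to 11 in F8/F4. Proliferation-linked genes called lower ranged over 0 to 3, 10 to 12, 8 to 11, 8 to 11 and 8 to 10 in the last 5, and constitutive genes over 0 to 0, 1 to 2, 1 to 1, 1 to 2 and 0 to 1. The 3 in M8/F8 (Fanci, Rad51ap1 and Exo1) came without the first M8/F8 array, and the Mgmt call went without the first F8/F3 array. The sex difference from 3 to 8 wk held in 0 to 1 members, with 0 without either M8/M3 or either F8/F3 array, and that from 4 to 8 wk in 0 to 0.

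The replicate block lost none of the 48 calls and added that of Fanci in M8/F8. The deviations of arrays with the same replicate number correlated with the sign that a shared pool gives in all 10 pairs of comparisons that share a group (absolute r between 0.15 and 0.68), and with r between -0.29 and 0.22 in the 11 pairs that share none. With shared pools in the covariance 8 of the 48 calls were lost, 3 of Fancd2, 3 of Brip1 and 2 of Brca1. Ratios of dim genes are limited by signal over background: Brca1, Fancd2 and Chek1 were near it, and on the M8/F8 arrays Rad54l was well above background on none and Neil3, Fanci, Exo1 and Rad51ap1 in M8 on 1 of 2. The sizes of large falls were smaller with normexp and loess, which changed the background correction and the normalization together. Normexp also added an offset of 50 to both channels, which makes ratios smaller where a signal is dim. Its smaller falls are therefore not a better estimate of their size.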
